A study of Mus musculus with 12 samples.

Results

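The genes described here are 8 genes that respond to hormones or to inflammation: Fkbp5, Tsc22d3, Zbtb16, Sgk1, Pim1, Dio1, Saa1 and Saa3. They were chosen by their known roles and because several of them drifted between days in wild-type (WT) jejunum, so the WT values between days are given as a description, with no test. No numerical threshold defined the set. All 8 were among the 19938 genes with a probe set of their own on the array, and each had 1 such probe set. The series compared the whole jejunum, the middle stretch of the small intestine, of Fgfr1op knockout (KO) mice and WT mice. The groups were KO and WT at days 6, 9 and 12 on a scale the labels call post-tamoxifen, with 2 mice and hence 2 arrays in each of the 6 groups. Fgfr1op, now named Cep43, encodes a centrosome protein, and its ablation was inducible, by tamoxifen injected into the abdomen at 75 mg per kg for 5 days. The protocol text is common to all samples, and the labels state neither ages, nor what drives the recombinase, nor the treatment of WT mice apart from that text. RNA came from the whole tissue and included muscle and immune cells, so fewer cells of a type and less RNA per cell cannot be told apart in any value below.

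Glucocorticoids, chiefly corticosterone in mice, enter cells and bind the glucocorticoid receptor, which moves to the nucleus and switches genes on or off. Fkbp5 encodes a co-chaperone that lowers the receptor's affinity for hormone, and Tsc22d3 encodes GILZ, an anti-inflammatory leucine zipper protein. Both are widely used as readouts of the hormone, as are Zbtb16, a zinc finger transcription factor also known as PLZF, and Sgk1, a kinase that promotes sodium uptake by epithelia. Pim1 is a kinase induced by cytokines through STAT factors. Dio1 is the type 1 deiodinase, which converts thyroxine to the active thyroid hormone. Saa1 and Saa3 belong to the serum amyloid A family, apolipoproteins of the acute phase response. Saa1 is made mainly by the liver, and Saa3 mainly outside it, among others by macrophages and the gut epithelium.

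The promoters of the genes that read out glucocorticoids are shown for the letters to which the receptor is known to bind. RefSeq windows of 300 bases (250 before the start of a transcript and 50 after it, mouse build GRCm38.p6) were found for 7 of the 8 genes, 15 windows in all. Capitals mark the matches, on either strand, to 7 motifs: the full glucocorticoid response element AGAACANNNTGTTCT, the hexamer TGTTCT at its end, the STAT motif TTCNNNGAA, the C/EBP motif TTGCGCAA, the NF-kB motif GGACTTTCC, the thyroid hormone response element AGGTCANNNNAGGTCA and the E-box CACGTG. The full element contains the hexamer on each strand. The windows lie at chr10:21993640-21993939 on the plus strand (Sgk1), chrX:140600473-140600772 on the minus strand (Tsc22d3) and chr17:28486100-28486399 on the minus strand (Fkbp5).
Sgk1: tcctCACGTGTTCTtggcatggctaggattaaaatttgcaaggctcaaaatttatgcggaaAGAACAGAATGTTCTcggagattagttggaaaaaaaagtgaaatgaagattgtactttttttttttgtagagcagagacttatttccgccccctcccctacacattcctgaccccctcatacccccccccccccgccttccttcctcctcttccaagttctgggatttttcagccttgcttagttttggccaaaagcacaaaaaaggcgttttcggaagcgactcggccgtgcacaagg
Tsc22d3: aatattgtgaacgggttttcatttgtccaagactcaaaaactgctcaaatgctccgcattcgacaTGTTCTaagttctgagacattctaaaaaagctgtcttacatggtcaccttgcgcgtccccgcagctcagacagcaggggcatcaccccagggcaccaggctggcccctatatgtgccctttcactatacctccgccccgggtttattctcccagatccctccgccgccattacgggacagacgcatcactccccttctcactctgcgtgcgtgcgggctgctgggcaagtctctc
Fkbp5: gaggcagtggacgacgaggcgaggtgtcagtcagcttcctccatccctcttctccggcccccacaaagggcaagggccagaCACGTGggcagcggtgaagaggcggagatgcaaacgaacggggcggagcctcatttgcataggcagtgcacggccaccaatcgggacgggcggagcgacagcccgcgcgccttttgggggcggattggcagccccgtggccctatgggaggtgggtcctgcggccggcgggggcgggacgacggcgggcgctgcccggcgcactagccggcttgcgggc

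The Sgk1 window, 1 of 6 for this gene, holds the full element as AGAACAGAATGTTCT, with its first base at position -189 from the start of the transcript. Only 3 of the 32851 promoter windows of the mouse table, or 0.00913%, hold those letters. The same window has an E-box at -246 that overlaps a further hexamer at -242. The Tsc22d3 window, 1 of 3, has a hexamer at -185, a motif found in 19.0% of all windows. The Fkbp5 window has an E-box at -169, as do 7.15% of all windows, and 0 matches to the other 6 motifs. The hexamer also stands at -195 and at -13 in 2 other windows of Sgk1. Other windows hold STAT letters at -223 in Sgk1 and at -207 in Tsc22d3, and an E-box at -58 in Pim1. The windows of Dio1, Saa1 and Saa3 held 0 matches to any of the motifs. Of the other motifs, the STAT letters stand in 8.30% of all windows, the NF-kB letters in 0.344%, the C/EBP letters in 0.183% and the thyroid element in 0.0152%. A match is a description of the letters and says nothing of binding in these mice.

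The deposited values are log2 signals, on which a difference of 1 is a doubling. Cep43, the targeted gene, lay between 6.56 and 6.97 on the KO arrays and between 6.83 and 7.05 on the WT arrays. The ranges overlapped, and the average difference was -0.26 (SE 0.06, limma adjusted p = 0.00713). The probe set may lie outside the deleted part, which is not given, so this checks the labels only weakly. The jejunal epithelium markers Vil1 and Fabp2 were bright on all arrays, at 11.57 to 12.62 and 12.46 to 13.46 in KO and at 12.53 to 12.75 and 13.31 to 13.56 in WT. Alpi was bright as well, at 12.05 to 13 in KO and 12.34 to 12.55 in WT. Lct was bright on all WT arrays, at 11.5 to 12.41. In KO it had 10.74 and 10.67 at day 6, and lay between 5.74 and 6.43 at days 9 and 12.

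**Figure D1:**
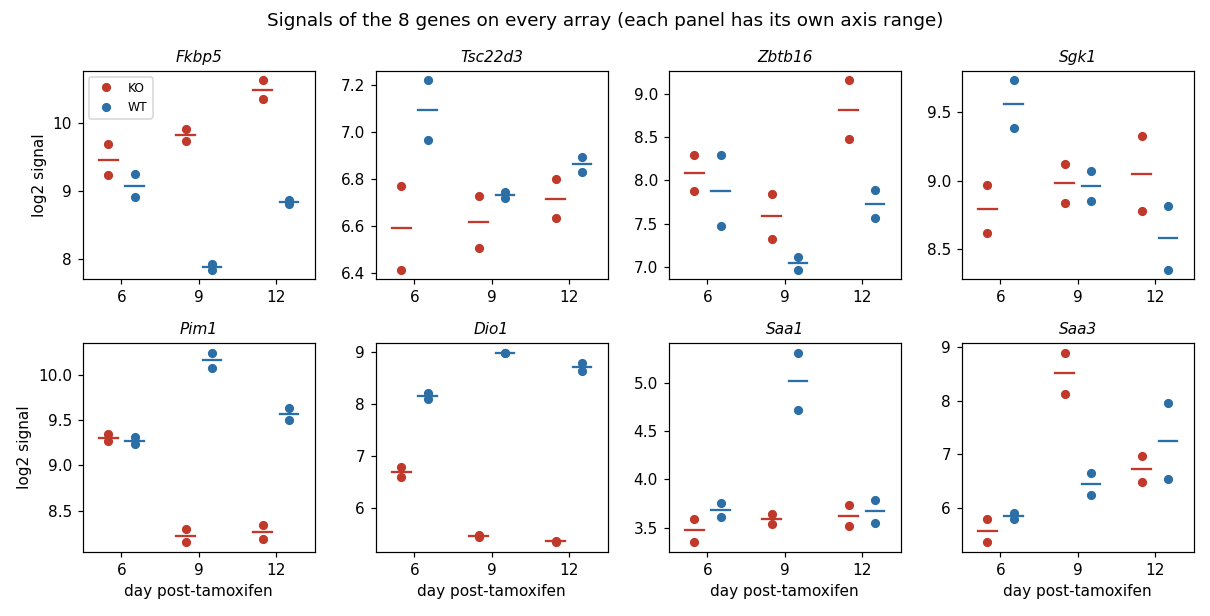
Log2 signal (vertical axis) of each of the 8 genes at days 6, 9 and 12 (horizontal axis), with 1 point per array and a line at the mean of the 2 arrays, KO to the left of WT. WT arrays of day 9 stand apart from the other WT days in Fkbp5, Pim1, Dio1 and Saa1, while the KO arrays do not follow them there.

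Fkbp5 (chr17:28398753-28486149, GRCm38.p6) was higher in KO jejunum, and the KO arrays did not show the dip of the WT arrays at day 9. In KO jejunum, Fkbp5 signals were 9.23 and 9.70 at day 6, 9.91 and 9.73 at day 9, and 10.36 and 10.63 at day 12. In WT jejunum, Fkbp5 signals were 8.91 and 9.26 at day 6, 7.84 and 7.93 at day 9, and 8.82 and 8.87 at day 12. The WT arrays thus dipped at day 9 and came back at day 12, whereas the KO arrays stood higher at each later day. The WT mean of day 9 was 2.29-fold below that of day 6. KO and WT arrays overlapped at day 6 and stood apart at days 9 and 12, with KO higher.

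Averaged over days, a contrast that is orthogonal in the fit to differences between WT days, Fkbp5 rose 2.5-fold in KO (log2 1.32, SE 0.09, 6 mice per genotype). The limma adjusted p was 8.26e-07, and an exact permutation of genotypes within days gave a two-sided p = 0.0185, the smallest possible being 0.00926. The average still includes the WT dip of day 9. KO minus WT was 0.38 at day 6, 1.94 at day 9 and 1.65 at day 12 (SE 0.16 each). Among the KO days, which the choice by WT days did not use, Fkbp5 changed over days (moderated F test, limma adjusted p = 0.00162). Its day means in KO spanned 1.03 on the log2 scale. The step from day 9 to day 12 passed (0.67, SE 0.16, adjusted p = 0.0133) and that from day 6 to day 9 did not (0.36, SE 0.16, adjusted p = 0.133). The call from day 9 to day 12 was lost when KO day 9 replicate 2 was left out (adjusted p = 0.0655), and likewise for KO day 12 replicate 2 (0.102).

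Of all 8 genes, 6 passed in the average over days, against 32.6% of all genes. They were Fkbp5 and Zbtb16, which rose, and Tsc22d3, Pim1, Dio1 and Saa1, which were lower. The averages of Saa1 and Tsc22d3 come mostly from 1 day each, on which their WT arrays were highest, and nothing is read from these 2 calls. The count is likewise a description. Over the KO days 5 passed, against 37.6% of all genes. The 5 were Fkbp5, Zbtb16, Pim1, Dio1 and Saa3. From day 6 to day 9 in KO 3 passed (Pim1, Dio1 and Saa3), against 24.5% of all genes. From day 9 to day 12 in KO 3 passed (Fkbp5, Zbtb16 and Saa3), against 22.9% of all genes. Leaving out KO day 12 replicate 2 ended all 3 of these calls, and leaving out KO day 9 replicate 1 left 1. With any 1 array left out, 2028 to 5529 genes were called in this step, against 4573 with all arrays. KO and WT arrays did not overlap for 5 genes at day 6 (44.6% of all genes), 6 at day 9 (65.8%) and 5 at day 12 (58.2%). All 5 of day 6 (Tsc22d3, Sgk1, Dio1, Saa1 and Saa3) stood lower in KO, Saa3 by less than its SE. For Tsc22d3 and Sgk1, day 6 was the WT day with the highest signals. The share of all genes that stood apart and lower was not counted, so nothing is read from the direction. The WT arrays entered both the choice of genes and these daily differences, so the daily differences carry no p-value.

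Tsc22d3 (chrX:140539528-140600522) was slightly lower in KO, where Fkbp5 was higher. In KO jejunum, Tsc22d3 signals were 6.41 and 6.77 at day 6, 6.73 and 6.51 at day 9, and 6.80 and 6.63 at day 12. In WT jejunum, Tsc22d3 signals were 6.96 and 7.22 at day 6, 6.72 and 6.74 at day 9, and 6.89 and 6.83 at day 12. The WT arrays were highest at day 6, where they lay above both KO arrays by a mean of 0.50 (SE 0.14 on the log2 scale). The KO arrays varied little: the F test over KO days gave an adjusted p of 0.719. The average difference of -0.25 (SE 0.08, limma adjusted p = 0.0262) rests mostly on day 6, against -0.12 and -0.15 at days 9 and 12, and so draws on the WT day at which the gene stood out. It did not pass on leaving out any of 7 single arrays (KO day 6 replicate 1, KO day 9 replicate 2, KO day 12 replicate 2, WT day 6 replicate 2, both WT arrays of day 9 and WT day 12 replicate 1), with adjusted p up to 0.0802.

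Zbtb16 (chr9:48651797-48836225) was higher in KO, most of all at the last day. In KO jejunum, Zbtb16 signals were 7.88 and 8.29 at day 6, 7.33 and 7.85 at day 9, and 8.48 and 9.16 at day 12. In WT jejunum, Zbtb16 signals were 8.30 and 7.47 at day 6, 7.12 and 6.97 at day 9, and 7.57 and 7.89 at day 12. Both genotypes were lowest at day 9, and the WT arrays of day 6 were the most spread. The genotypes overlapped at day 6 only. Averaged over days Zbtb16 rose 1.53-fold in KO (log2 0.61, SE 0.17, limma adjusted p = 0.0139, exact permutation p = 0.0463). In KO, day 12 was 2.35-fold above day 9 (log2 1.23, SE 0.29, adjusted p = 0.0116), and the change over KO days passed with an adjusted p of 0.0159. Both KO calls were lost on leaving out KO day 9 replicate 1 or KO day 12 replicate 2, with adjusted p from 0.0804 to 0.102.

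Smooth muscle markers moved with Fkbp5 and, in part, with Zbtb16. In KO jejunum the mean of 8 such markers, relative to the WT mean, stood at -1.12 and -1.32 at day 6, 0.35 and -0.89 at day 9, and 1.04 and 0.41 at day 12. In WT jejunum it was 0.64 and -0.10 at day 6, -0.82 and -0.02 at day 9, and 0.11 and 0.19 at day 12. Its day means were lowest at day 9 in WT and higher at each later day in KO, as those of Fkbp5 were, while Zbtb16 in KO was lowest at day 9. Their part in both results was not tested. Of the 8 markers, limma called 0 in the average over days (0 also at an unadjusted p under 0.05, median -0.31), where Fkbp5 and Zbtb16 rose. In KO, 2 rose from day 6 to day 9, beside 10% of all genes. From day 9 to day 12 in KO 2 rose (median 1.06), beside 14.1% of all genes. All 8 passed in the F test over KO days, against 37.6% of all genes. All of 5 T cell markers fell in the average (median -0.84), and their mean lay between -1.55 and -0.77 in KO at days 9 and 12, against -0.14 to 0.27 in WT. Zbtb16 also marks innate-like T cells.

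Sgk1 (chr10:21882184-21999903) passed in none of the 4 contrasts. In KO jejunum, Sgk1 signals were 8.62 and 8.97 at day 6, 9.12 and 8.84 at day 9, and 8.78 and 9.33 at day 12. In WT jejunum, Sgk1 signals were 9.38 and 9.73 at day 6, 9.07 and 8.86 at day 9, and 8.82 and 8.35 at day 12. The WT means stood lower at each later day, over a span of 0.98. The KO arrays lay below WT at day 6 (-0.76, SE 0.21) and overlapped with WT at days 9 and 12 (0.02 and 0.47, SE 0.21 each). The average difference of -0.09 (SE 0.12, limma adjusted p = 0.631, exact permutation p = 0.713) and the change over KO days (adjusted p = 0.59) did not pass. Of the 4 glucocorticoid readouts, Fkbp5 and Zbtb16 passed in both of these tests and Sgk1 in neither. Tsc22d3 passed in the average only, a call from which nothing is read.

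**Figure D2:**
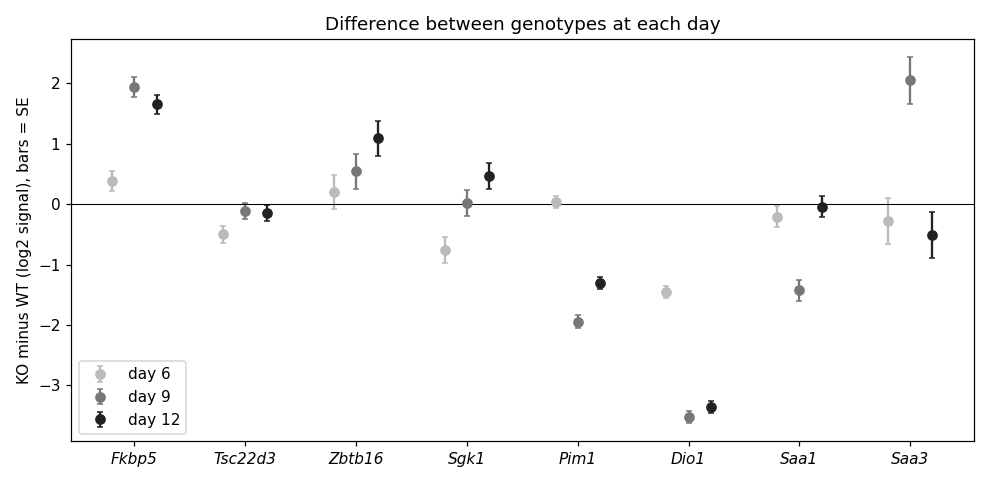
KO minus WT difference in log2 signal (vertical axis) for each of the 8 genes at days 6, 9 and 12 (light to dark), with bars for the SE of the fit. Dio1 lies below 0 at all 3 days, Fkbp5 and Zbtb16 lie above 0, and Sgk1 and Saa3 lie on different sides of 0 on different days.

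Dio1 (chr4:107291465-107307168) had the largest average difference of the 8 genes. In KO jejunum, Dio1 signals were 6.59 and 6.79 at day 6, 5.48 and 5.44 at day 9, and 5.37 and 5.33 at day 12. In WT jejunum, Dio1 signals were 8.09 and 8.21 at day 6, 8.99 and 8.99 at day 9, and 8.79 and 8.64 at day 12. KO and WT arrays stood apart at each day, with KO lower by 1.46, 3.53 and 3.36 in the order of days (SE 0.10 each). Averaged over days Dio1 fell 6.89-fold in KO (log2 -2.79, SE 0.06, limma adjusted p = 1.09e-10), and the exact permutation p of 0.00926 was the smallest possible. Within KO, Dio1 fell by 1.23 from day 6 to day 9 (SE 0.10, adjusted p = 1.17e-05) and did not pass from day 9 to day 12 (-0.11, SE 0.10, adjusted p = 0.453). Within WT the mean of day 9 was 1.79-fold above that of day 6, the opposite direction.

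Pim1 (chr17:29490785-29496111) was at like levels in the 2 genotypes at day 6 and lower in KO thereafter. In KO jejunum, Pim1 signals were 9.27 and 9.35 at day 6, 8.29 and 8.15 at day 9, and 8.19 and 8.34 at day 12. In WT jejunum, Pim1 signals were 9.24 and 9.31 at day 6, 10.25 and 10.08 at day 9, and 9.51 and 9.63 at day 12. The genotypes overlapped at day 6 and stood apart at days 9 and 12, with KO lower by 1.95 and 1.30 (SE 0.10 each). Averaged over days Pim1 fell 2.1-fold in KO (log2 -1.07, SE 0.06, limma adjusted p = 1.17e-07, exact permutation p = 0.0463). This average includes day 9, at which the WT arrays were highest and the difference was largest. Within KO, Pim1 fell by 1.09 from day 6 to day 9 (SE 0.10, adjusted p = 4.07e-05) and did not pass from day 9 to day 12 (0.04, SE 0.10, adjusted p = 0.794). Within WT the mean of day 9 was 1.85-fold above that of day 6.

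Most markers of the absorptive epithelium were lower in KO at days 9 and 12, as Dio1 and Pim1 were. The mean of 7 enterocyte markers, relative to the WT mean, was in KO jejunum -0.22 and -0.27 at day 6, -1.37 and -1.24 at day 9, and -1.56 and -1.13 at day 12. In WT it lay between -0.21 and 0.13 on the 6 arrays. Of the 7 markers, 5 fell in the average over days and 2 did not pass. Lct, the lactase, fell most (-4.33, SE 0.11, adjusted p = 4.13e-10), followed by the glucose transporter Slc5a1 (-1.30, SE 0.12) and the microvillus protein Vil1 (-0.59, SE 0.05). Fabp2, a fatty acid binding protein, fell by 0.30 (SE 0.08, adjusted p = 0.0102). Alpi and Apoa4 were those that did not pass, and Alpi rose by 0.74 (SE 0.11) from day 9 to day 12 in KO. At day 6 the median KO minus WT of the 7 markers was 0.05, with Lct at -1.07, while that of Dio1 was -1.46. The median of the 7 markers was -0.75 at day 9 and -0.76 at day 12. Lct, at -5.585 and -6.322 on those days, weighs most in the mean of the markers. The part of these markers in the falls of Dio1 and Pim1 was not tested.

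Saa3 (chr7:46711998-46719615) rose and fell again within KO. In KO jejunum, Saa3 signals were 5.80 and 5.37 at day 6, 8.89 and 8.13 at day 9, and 6.98 and 6.48 at day 12. In WT jejunum, Saa3 signals were 5.92 and 5.81 at day 6, 6.25 and 6.66 at day 9, and 7.95 and 6.54 at day 12. Both KO arrays of day 9 lay above the other 10 arrays, of which the WT array at 7.95 came nearest. Within KO, day 9 was 7.59-fold above day 6 (log2 2.92, SE 0.38, limma adjusted p = 0.000396), and day 12 was 3.43-fold below day 9 (log2 -1.78, SE 0.38, adjusted p = 0.0082). The fall at day 12 lost its call on leaving out KO day 9 replicate 1 (adjusted p = 0.0777) or KO day 12 replicate 2 (0.0665). KO minus WT was -0.28 at day 6, 2.05 at day 9 and -0.51 at day 12 (SE 0.38 each, n = 2 per genotype). The day 6 difference was smaller than its SE, with the nearest KO and WT arrays at 5.80 and 5.81, and the arrays of day 12 overlapped. The average over days did not pass (0.42, SE 0.22, adjusted p = 0.183, exact permutation p = 0.417). Without WT day 12 replicate 1, the array at 7.95, it was 0.65 and passed (adjusted p = 0.0106).

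The mean of neutrophil markers was highest in KO at day 9, as Saa3 was, and that of macrophage markers was highest in KO at day 12. The mean of 6 neutrophil markers, relative to WT, was 0.35 and 0.40 on the KO arrays of day 9 and 0.06 to 0.10 on those of day 12, against -0.09 to 0.09 in WT. Of these 6, 2 rose in the average over days and 4 did not pass. From day 6 to day 9 in KO 3 rose, beside 10% of all genes. S100a8, Cxcr2, Mpo and Ngp were among the dimmest 25% of genes, and the mean of Mpo was highest in WT at day 9. The mean of 4 pancreatic acinar markers was likewise 0.30 and 0.14 on the KO arrays of day 9, against -0.09 to 0.08 in WT. The mean of 6 macrophage markers was 0.21 and 0.29 on the KO arrays of day 9 and 0.38 on both of day 12. In WT it was -0.08 to 0.16. Of these markers, Mrc1 rose from day 9 to day 12 in KO (1.03, SE 0.16) and 5 did not pass, with a median of -0.07. The part of both sets of markers in the result of Saa3 was not tested.

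Saa1 (chr7:46740497-46743181) was dim, and its signals stood out in the WT arrays of day 9. In KO jejunum, Saa1 signals were 3.35 and 3.59 at day 6, 3.64 and 3.53 at day 9, and 3.73 and 3.52 at day 12. In WT jejunum, Saa1 signals were 3.61 and 3.75 at day 6, 4.72 and 5.31 at day 9, and 3.55 and 3.79 at day 12. The arrays other than the WT pair of day 9 all lay between 3.35 and 3.79. Its mean over all arrays, 3.84, was above that of 7.51% of genes, and signals were not tested against background, so no fold is given. The average KO minus WT difference of -0.56 (SE 0.10) rests on day 9, where the difference was -1.43, against -0.21 and -0.05 at days 6 and 12 (SE 0.17 each). It draws on the WT day for which the gene was chosen, so it is a description and carries no p-value here. Over the KO days Saa1 did not pass (adjusted p = 0.737).

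Other members of the serum amyloid A family did not pass in the average over days. Saa2, a near-identical neighbour of Saa1 whose RNA the 2 probe sets may both bind, lay between 4.66 and 5.25 in KO and between 4.75 and 5.13 in WT. In WT, Saa2 was 0.25 higher at day 9 than at day 6, against 1.33 for Saa1. The average difference of Saa2 was -0.02 (SE 0.08, adjusted p = 0.897) and that of Saa4 did not pass either (0.38, SE 0.17, adjusted p = 0.107). The mean of 5 liver markers lay between -0.12 and 0.02 on the KO arrays and between -0.10 and 0.08 on the WT arrays, relative to the WT mean.

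**Figure D3:**
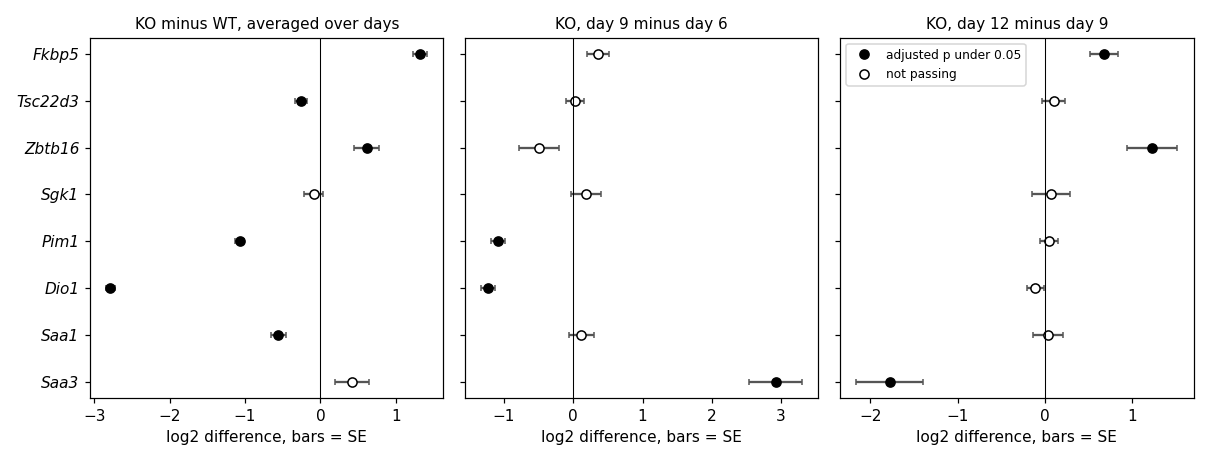
Log2 differences (horizontal axes, bars are SE) of the 8 genes in the average of KO minus WT over days, in KO day 9 minus day 6 and in KO day 12 minus day 9. Filled points passed an adjusted p of 0.05. The passing genes are 6, 3 and 3 in the panels from left to right.

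The wider set of glucocorticoid-responsive genes leaned to higher signals in KO, most of all at day 12. The median KO minus WT of 29 measured genes of that list other than the 4 described above was 0.10 at day 6, 0.07 at day 9 and 0.70 at day 12. Of the 29, 18 rose, 5 fell and 6 did not pass in the average over days, with a median of 0.28 against 0.02 for all genes. Of all genes, 15.7% were called higher, 16.9% lower and 67.4% did not pass, and the counts of the other lists in this average stand beside the same shares. The largest were the fall of Pck1, the rate-limiting enzyme of gluconeogenesis (-2.18, SE 0.21, adjusted p = 8.68e-06), and the rises of Dusp1, a MAP kinase phosphatase (1.85, SE 0.14), and Anxa1, the anti-inflammatory annexin (1.62, SE 0.10). From day 6 to day 9 in KO 6 rose and 5 fell, beside 10% of all genes called higher and 14.5% lower. The step was led by Pck1 (-3.20, SE 0.36), the amino acid catabolising Tat (2.94, SE 0.34) and Anxa1 (2.11, SE 0.18). From day 9 to day 12 in KO 16 rose and 1 fell, with a median of 0.44 against -0.03 for all genes, of which 14.1% were called higher and 8.81% lower. The smooth muscle markers, with a median of 1.06 in this step, moved the same way, and their part was not tested. Mt2, a metallothionein (1.57, SE 0.32), and the clock gene Per1 (1.35, SE 0.16) rose in that step, and the kinase gene Map3k6 fell (-1.36, SE 0.16). In WT the median of the same 29 genes was 0.07 from day 6 to day 9 and -0.06 from day 9 to day 12, while Fkbp5 went down by 1.20 and up by 0.96.

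**Figure D4:**
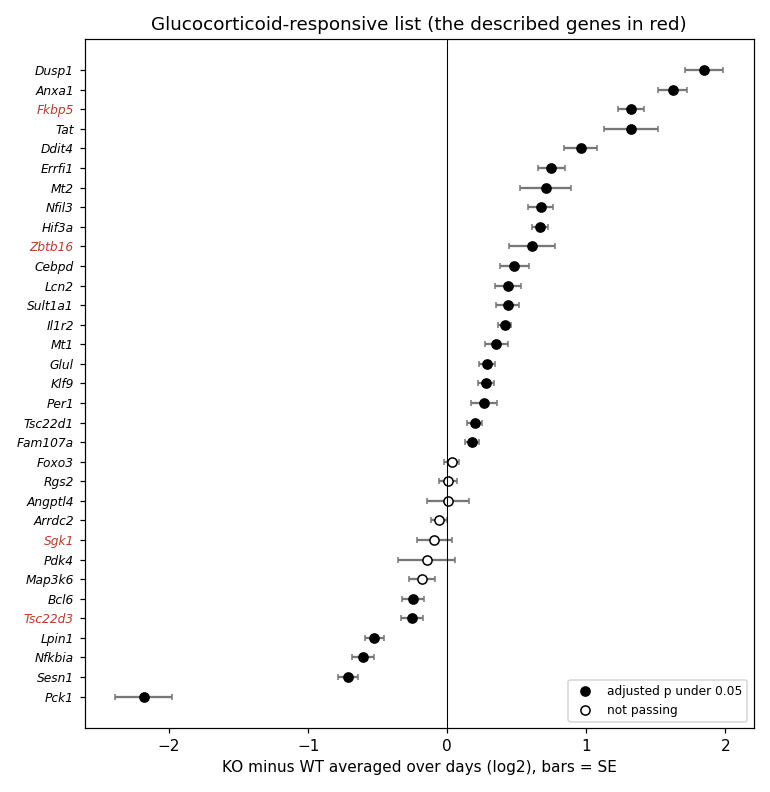
KO minus WT difference averaged over days (horizontal axis, log2, bars are SE) for the 33 measured glucocorticoid-responsive genes, ordered by size, with filled points at an adjusted p under 0.05. Fkbp5 and Zbtb16 are among the rises, Tsc22d3 is among the falls and Sgk1 is near 0.

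Receptors and enzymes that set the cell's response to steroids differed as well. Nr3c1, the glucocorticoid receptor, fell by 0.73 in KO on average (SE 0.06, adjusted p = 1.98e-06), with 9.09 and 8.98 in KO against 9.37 and 9.20 in WT at day 6. At day 9 it had 8.45 and 8.55 in KO against 9.56 and 9.56 in WT, and at day 12 it had 8.58 and 8.72 in KO against 9.60 and 9.50 in WT. KO lay below WT at each day. Hsd11b1, which regenerates active glucocorticoid, rose by 1.18 (SE 0.07, adjusted p = 1.82e-07). Hsd11b2, which inactivates it, fell by 0.74 (SE 0.06, adjusted p = 4.78e-06). Nr3c2, the mineralocorticoid receptor, fell by 0.45 (SE 0.08, adjusted p = 0.000953). Nr5a2, the nuclear receptor LRH-1 linked to steroid synthesis in the gut, fell by 1.34 (SE 0.11, adjusted p = 2.14e-06).

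Hsd11b1 went up step by step in KO. It had 6.13 and 6.32 in KO against 5.55 and 5.75 in WT at day 6, 6.73 and 6.84 in KO against 5.53 and 5.68 in WT at day 9, and 7.65 and 7.38 in KO against 5.74 and 5.70 in WT at day 12. The rises from day 6 to 9 (0.56, SE 0.12) and from day 9 to 12 (0.73, SE 0.12) both passed (adjusted p = 0.00632 and 0.00202). Of the 16 genes of this list other than Fkbp5, 3 rose, 6 fell and 7 did not pass in the average. The steroid-synthesis enzymes Cyp11a1 and Cyp11b1 were dim and did not pass (adjusted p = 0.389 and 0.568).

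Among 12 further genes of mineralocorticoid action and sodium transport, 1 rose, 5 fell and 6 did not pass in the average over days. The largest falls were in Slc9a3, the sodium-proton exchanger of the brush border (-2.08, SE 0.19), and Scnn1a, the alpha subunit of the epithelial sodium channel (-0.96, SE 0.09), followed by Hsd11b2. The related kinase Sgk2 rose by 0.32 (adjusted p = 0.0366) while Sgk3 did not pass (0.02, adjusted p = 0.894).

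**Figure D5:**
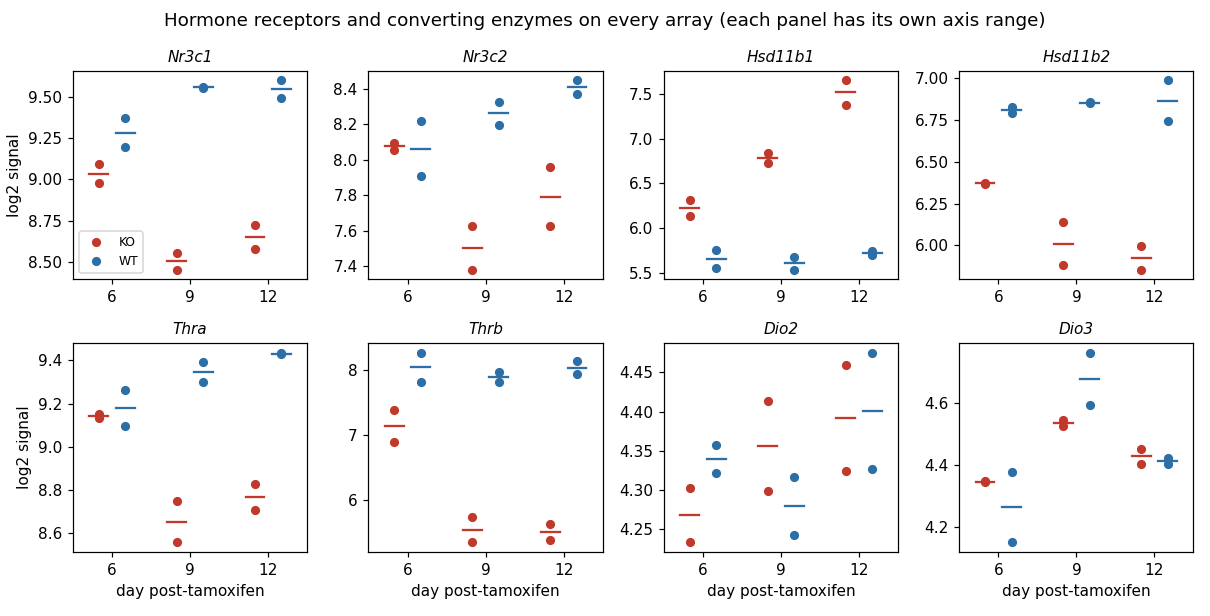
Log2 signal (vertical axis) of 4 steroid-related and 4 thyroid-related genes at days 6, 9 and 12 (horizontal axis), with 1 point per array and a line at each mean, KO to the left of WT. Hsd11b1 is higher in KO at each day, Nr3c1 and Hsd11b2 are lower, Thrb is lower, and Dio2 and Dio3 stay between 4.15 and 4.76.

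Of the thyroid hormone genes, both receptors were lower in KO, as Dio1 was. Thrb, a thyroid hormone receptor, had 7.39 and 6.89 in KO against 8.27 and 7.82 in WT at day 6, 5.34 and 5.74 in KO against 7.82 and 7.97 in WT at day 9, and 5.39 and 5.63 in KO against 7.94 and 8.14 in WT at day 12. Averaged over days it fell by 1.93 (SE 0.11, adjusted p = 1.9e-07). Thra, the other receptor, fell by 0.46 (SE 0.06, adjusted p = 7.43e-05). Slc16a10, a transporter of aromatic amino acids and thyroid hormones, fell by 1.82 (SE 0.08, adjusted p = 2.89e-08), and Me1, malic enzyme, rose by 1.48 (SE 0.12, adjusted p = 2.57e-06). The deiodinases Dio2 and Dio3 lay at 4.23 to 4.46 and 4.35 to 4.55 in KO and at 4.24 to 4.48 and 4.15 to 4.76 in WT, among the dimmest 25% of genes, and did not pass (adjusted p = 0.987 and 0.881). Of 16 genes of this list other than Dio1, 2 rose, 5 fell and 9 did not pass, with a median of -0.01 against 0.02 for all genes.

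Of 34 measured acute phase and interleukin 6 genes other than the Saa pair, 6 rose, 2 fell and 26 did not pass in the average over days, beside 15.7% higher, 16.9% lower and 67.4% not passing over all genes, with a median of 0.06. Serpina3n, a protease inhibitor of the acute phase, rose by 1.47 (SE 0.21, adjusted p = 0.00025), the oncostatin M receptor Osmr rose by 0.49 (SE 0.12, adjusted p = 0.00804), and the antimicrobial lectin Reg3g fell by 0.52 (SE 0.17, adjusted p = 0.0343). From day 6 to day 9 in KO 7 rose and 1 fell, beside 10% of all genes called higher and 14.5% lower. From day 9 to day 12 in KO 7 rose and 5 fell, beside 14.1% higher and 8.81% lower. Il1b, the cytokine gene, went with Saa3 in KO, 0.86 higher at day 9 than at day 6 (SE 0.18, adjusted p = 0.00621) and 0.95 lower at day 12 than at day 9 (SE 0.18, adjusted p = 0.00461). Il1b was chosen after its values were seen.

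Targets of JAK-STAT signalling other than Pim1 were divided. Of 16, 4 rose, 5 fell and 7 did not pass in the average over days (median -0.08). Irf1, an interferon-induced transcription factor, fell by 0.82 (SE 0.11, adjusted p = 0.00015), the feedback inhibitor Socs3 fell by 0.34 (SE 0.08, adjusted p = 0.00492) and Junb rose by 0.32 (SE 0.09, adjusted p = 0.0223). In WT, Irf1 was 1.10 higher at day 9 than at day 6, the direction of Pim1. Of the Pim family, Pim3 rose by 0.22 (adjusted p = 0.0339) and Pim2 did not pass (-0.15, adjusted p = 0.144).

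Genes of the circadian clock and immediate early genes, which respond fast to stimuli, had calls in both directions. Of 17 clock genes, 3 rose, 6 fell and 8 did not pass in the average over days, and from day 9 to day 12 in KO 11 rose and 0 fell (median 0.65, against -0.03 for all genes, of which 14.1% were called higher and 8.81% lower). The largest averages were those of Dbp, a clock output gene (-1.32, SE 0.20), and of the repressors Nr1d1 (-1.10, SE 0.14) and Nfil3 (0.67, SE 0.09). The step from day 9 to day 12 was led by Per1, Cry2 (1.23, SE 0.20) and Ciart (1.22, SE 0.18), in the step in which Fkbp5 and Zbtb16 rose. In WT the median of the 17 was -0.01 from day 6 to day 9, when Fkbp5 dipped, and 0.16 from day 9 to day 12. Dbp was 1.06 higher in WT at day 12 than at day 9. Of 13 immediate early genes, 8 rose, 2 fell and 3 did not pass in the average, led by Dusp1, Ier3 (0.92, SE 0.07) and Atf3 (0.90, SE 0.20). The labels state no hour of sampling, and the part of these lists in the results was not tested.

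The genes with the closest patterns were ranked by Pearson's r over the 12 arrays, which share genotype and day. Dio1 was closest to Plbd1 (r = 0.99), Apol10a (0.99) and Tcea3 (0.99), and Pim1 to Vmp1 (0.98), Prpsap1 (0.98) and Plaat3 (0.98). Fkbp5 was closest to Pgap1 (0.95), Acox2 (0.95) and Sik1 (0.95), and Saa1 to Krtap19-2 (0.96), Aopep (0.89) and Cacng5 (0.88). Zbtb16 was closest to Ino80 (0.93), Ranbp2 (0.92) and Trip11 (0.92), and Saa3 to Cd300c2 (0.93), Toporsl (0.93) and Ntf5 (0.93). Sgk1 had Mgat4d (0.91), Lrrc6 (0.85) and Gabra2 (0.81), and Tsc22d3 had Kndc1 (0.85), Fmod (0.82) and Rdm1 (0.81). The ranking took the highest r, so opposite patterns were left out. It skipped predicted genes, unnamed clones, small RNAs, odorant receptor genes and immunoglobulin segments. None of the 8 genes was among the 3 closest to another. Among the 8, r was largest in size for Pim1 with Dio1 (0.93), Fkbp5 with Pim1 (-0.91) and Fkbp5 with Dio1 (-0.90).

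Between WT days, the measure by which the genes were chosen, the 8 genes spanned 0.36 (Tsc22d3) to 1.38 (Saa3) on the log2 scale, beside a median of 0.16 over all genes. The span of Saa3 was 0.68 without WT day 12 replicate 1. Over the KO days the spans of Tsc22d3, Saa1 and Sgk1 were 0.12, 0.15 and 0.26, below the median of 0.30 over all genes, and those of the other 5 genes were 1.03 to 2.92.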

How the data were processed

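RNA of 12 jejuna was hybridised to 12 Affymetrix Mouse Gene 1.0 ST arrays. The log2 values that the authors deposited for 35556 probe sets were used unchanged. Limma and R 3.5 appear in the submitters' processing notes with no role. How background was corrected and probes were summarised and normalised is not stated there. Values ran from 2.29 to 14.13 and array medians from 5.95 to 6.02. The correlation across genes between the 2 arrays of a group was 0.992 to 0.997. The number of arrays limits the precision.

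Of the probe sets, 21789 carried 1 symbol in the platform annotation, 1621 carried several and 12146 are unnamed here. For symbols with several probe sets, that with the highest mean was used, which left 19938 genes. limma 3.58.1 in R 4.3.3 fitted 1 mean per genotype and day, without a filter on dim genes. Variances were moderated by empirical Bayes, with 5.23 degrees of freedom in the prior beside 6 in the residuals. KO minus WT averaged over days, the change over KO days (F test) and the steps between KO days were tested two-sided and adjusted by the Benjamini-Hochberg method over all genes, with calls at 0.05. Exact permutations of genotype within days (216) were added per gene. Arrays of a group are of different mice. Replicate numbers were not treated as pairs, since the deviations of arrays with the same number correlated at -0.15 to 0.35. Alternatives were quantile normalisation, median centring, a filter on dim genes, the mean of probe sets, trend and robust moderation, array weights, a replicate block, the KO arrays alone and leaving out each array. The fit was tested on simulated data. The members, the 17 lists (216 of 234 entries measured) and the tests were chosen with earlier results of these data known. The rule for names covered the 8 genes and, per list and contrast, the 3 called genes with the largest differences. Not all of these are printed. It also covered receptors and converting enzymes and the 3 genes most alike in pattern. Sgk2, Sgk3, Pim2, Pim3, Saa2, Saa4, Cyp11a1, Cyp11b1, Fabp2, Il1b, Apoa4, Mpo and Ngp were added after their values were seen. Promoter sequences are from RefSeq (GRCm38.p6).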

Additional observations from a re-analysis of the deposited data

Results flagged for a closer look

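For Fkbp5, Pim1 and Dio1 the arrays of days 6 and 9 did not overlap in either genotype. The difference had opposite signs in KO and WT. In KO, the nearest Fkbp5 arrays of days 6 and 9 stood at 9.70 and 9.73. How many of all genes have this pattern was not counted, so nothing is read from the number of genes. Day 9 minus day 6 of Fkbp5 was 0.36 in KO, which did not pass (limma adjusted p = 0.133), and -1.20 in WT, that of Pim1 was -1.09 in KO and 0.89 in WT, and that of Dio1 was -1.23 in KO and 0.84 in WT. The difference between genotypes was not tested, since the WT side helped to choose the genes. Saa3 stood on opposite sides on different days: KO minus WT was -0.28 at day 6, 2.05 at day 9 and -0.51 at day 12 (SE 0.38 each). The arrays overlapped at day 12, they were apart at day 6 by less than the SE, and the difference was not tested. Groups of 2 arrays are too small for a search for single outlying samples.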

How the results depend on the processing

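Dio1, Pim1, Fkbp5 and Zbtb16 kept their calls in the average over days under every alternative run. Pim1 and Dio1 also kept theirs from day 6 to day 9. Saa1 kept its call in the average wherever it was fitted, which was not the case without the dimmest 25% of genes. Nothing is read from that, since its average draws on the WT day for which the gene was chosen. The counts of the 8 genes called were 5 to 6 with any 1 array left out for the average, 4 to 5 for the change over KO days, 3 to 4 from day 6 to day 9 and 0 to 3 from day 9 to day 12. The counts of all genes called were 5541 to 7128, 5351 to 7962, 2315 to 5633 and 2028 to 5529 in that order, against 6493, 7487, 4890 and 4573 with all arrays. The fit of the 6 KO arrays alone called 3113 genes from day 6 to day 9 and 2741 from day 9 to day 12, and array weights called 2374 in the later step and ended the call of Fkbp5 there (0.67, adjusted p = 0.0628). Quantile normalisation gave Fkbp5 a call from day 6 to day 9 (0.52, adjusted p = 0.041) and turned the uncalled steps of Sgk1 (-0.11) and Pim1 (-0.12) from day 9 to day 12. With 1 array left out, uncalled KO steps changed sign: from day 6 to day 9 Tsc22d3 ran from -0.15 to 0.20 and Saa1 from -0.005 to 0.24, and from day 9 to day 12 Tsc22d3 ran from -0.0103 to 0.21, Sgk1 from -0.20 to 0.34, Pim1 from -0.0330 to 0.12 and Saa1 from -0.0711 to 0.14. The cause was not tested. With the replicate block 6, 5, 3 and 3 of the 8 genes were called, as without it, and no call changed. Arrays of one number were not treated as pairs. Their deviations correlated between -0.15 and 0.35, which cannot show whether such arrays share a batch. Daily differences between genotypes or WT days were recomputed with quantile normalisation, median centring and probe set means. Each of the 8 genes had 1 probe set, so probe set means could not change their values. Of the 120 recomputed differences, these unchanged ones included, 119 moved by less than the spread between replicates. Pim1 at day 9 moved to -1.75 with quantile normalisation.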
